A study of Homo sapiens with 12 samples.

Results

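The cytosolic ribosomal protein genes encode the protein shell of the ribosomes that translate nuclear messages. They were taken from the deposited tables by symbol: RPL or RPS followed by a number and an optional suffix, RPLP0 to RPLP2, and RPSA. The rule found 84 of 23590 gene symbols, of which 30 belong to the small subunit, 46 to the large subunit and 8 are paralogs whose symbols end in L, or in L and a digit, among them RPL3L, RPL10L, RPL39L, RPS27L, RPL7L1, RPL22L1 and RPL26L1. The libraries, 12 in all with 3 per group, were made from poly(A) RNA of hand-picked colonies. The cells were H9 and RUES2, both established lines of human embryonic stem cells, kept in a naive or a primed state. Naive H9 (passages 27 to 31) and naive RUES2 (passages 24 to 26) received LIF at 20 ng/mL with PD0325901 at 1 µM and CHIR99021 at 3 µM, which inhibit MEK and GSK3, in medium with 5 mM glucose and 18 µg/mL insulin. Primed H9 (passages 31 to 35) and primed RUES2 (passages 30 to 33) were kept on a feeder layer of inactivated mouse embryonic fibroblasts, with bFGF at 4 ng/mL. No label names an mTOR inhibitor, although the series title does name a transient inhibition of mTOR. How the cultures of a group were separated is not stated, so a p-value measures the spread among libraries, which may be technical.

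Each cytosolic ribosome holds 1 copy of most of these proteins, so cells make them in matched amounts. Their mRNAs are among the most abundant of a dividing cell, and most start with a run of C and T letters (U in the RNA), the terminal oligopyrimidine (TOP) motif, through which mTOR signalling controls their translation. That control acts on translation and need not be seen in mRNA levels, which are what was measured here. Several genes have paralogs that are less abundant or restricted to tissues such as muscle and testis.

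The start of transcription shows what most of these genes share in sequence. A run of at least 7 consecutive C or T letters, searched on the gene's own strand only and touching the 5 bases on either side of the RefSeq start (build GRCh38.p14), was present in 51 of the 62 matched ribosomal protein genes other than paralogs, or 82.3%. Among all genes with a RefSeq promoter 18.6% held such a run (5083 of 27305), and among the matched paralogs 1 of 5 did. For a gene with several starts, the start with the longest run was used. The windows below cover the 15 bases before and the 15 bases from the start, with the run in capitals where there was one. The first group is the X-linked genes, the second pairs 3 parents with their paralogs, and RPL3 is a gene without a run whose level was lower in naive H9.
RPL39 (chrX:119791616-119791645, minus strand): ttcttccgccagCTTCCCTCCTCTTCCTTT
RPL36A (chrX:101390996-101391025, plus strand): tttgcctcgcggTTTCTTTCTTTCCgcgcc
RPL10 (chrX:154398362-154398391, plus strand): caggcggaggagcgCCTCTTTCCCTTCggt
RPS4X (chrX:72277234-72277263, minus strand): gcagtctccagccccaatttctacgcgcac
RPL26 (chr17:8383179-8383208, minus strand): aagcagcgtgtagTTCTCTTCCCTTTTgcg
RPL26L1 (chr5:172958714-172958743, plus strand): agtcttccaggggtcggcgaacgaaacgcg
RPL22 (chr1:6199581-6199610, minus strand): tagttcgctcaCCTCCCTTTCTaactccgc
RPL22L1 (chr3:170870181-170870210, minus strand): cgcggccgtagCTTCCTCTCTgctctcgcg
RPS27 (chr1:153990747-153990776, plus strand): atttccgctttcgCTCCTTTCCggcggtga
RPS27L (chr15:63157463-63157492, minus strand): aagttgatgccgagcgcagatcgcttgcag
RPL3 (chr22:39319609-39319638, minus strand): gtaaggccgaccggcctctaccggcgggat
RPL39 carried a run of 22 letters, which extends past its window, and RPL26 a run of 14. RPL26L1 and RPS27L had no run, unlike their parents, while RPL22L1 had one of 10 letters. A run is a description of these letters, and a window without one says nothing about regulation of the gene.

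Values are FPKM, fragments scaled to transcript length and to the mapped fragments of the library. The tables hold no read counts, so depth is unknown, but the deposited confidence bounds of the ribosomal protein genes lay at a median distance of 2.13% to 3.03% from the value. Of the FPKM sum, 35.2% to 50.2% came from short RNAs, and this share differed between the groups. It was 44.2% to 50.2% in naive and 38.2% to 44.3% in primed H9. In libraries labelled RUES2 it was 44.3% to 47.6% in the naive and 35.2% to 40.4% in the primed state, with no overlap. Markers fixed for the cell types showed pluripotent genes in all groups: POU5F1 averaged 436 FPKM in naive H9 and 910 FPKM in primed H9, and 527 FPKM in naive and 779 FPKM in primed libraries labelled RUES2. Of 8 pluripotent markers, 5 fell and 0 rose in naive H9 at a limma adjusted p under 0.05. In naive libraries labelled RUES2, 7 fell and 1, NANOG, rose. Of 10 naive markers, 8 were tested, of which 5 rose in naive H9 and 3 in naive libraries labelled RUES2, with 0 lower in either. These counts stand beside 20.4% of all genes called higher and 23.9% lower in H9, and 23.1% and 23.7% in the libraries labelled RUES2. DNMT3L was 13.7 FPKM in naive H9 and 0.375 FPKM in primed H9. KHDC3L was 9.48 FPKM in naive H9 but 0.199 FPKM in naive libraries labelled RUES2. KLF17 and TFCP2L1 stayed under 1 FPKM on average in every group. A check with genes that differ between lines found 3 of the 12 libraries at odds with other libraries of the same line label, and 0 of these carried the label H9. The lines are therefore called by their labels, and where a line is named below, the label is meant. In comparisons that use libraries labelled RUES2, a difference between lines cannot be told apart from one between states. The H9 comparison was also run on the H9 libraries alone.

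The ribosomal protein genes were measured at high and orderly levels. The 75 genes other than paralogs and RPL21 averaged between 180 and 4862 FPKM over the 12 libraries, with a median of 1592 FPKM, and 59 of them exceeded 1000 FPKM. RPL41, the smallest protein of the ribosome, led with 4483 ± 37.1 FPKM in naive H9 and 4879 ± 644 FPKM in primed H9 (SD, n = 3 each). In libraries labelled RUES2 it averaged 5057 ± 233 FPKM in the naive and 5028 ± 284 FPKM in the primed state. RPS27, RPS29, RPS18 and the stalk protein RPLP1 followed, with means over all libraries of 3891, 3859, 3774 and 3194 FPKM, and the first 3 of these did not differ beyond their spread. Of the 8 paralogs, the 7 named above lay far below, between 0.119 FPKM for RPL3L, a striated muscle protein, and 70.7 FPKM for RPL7L1.

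**Figure D1:**
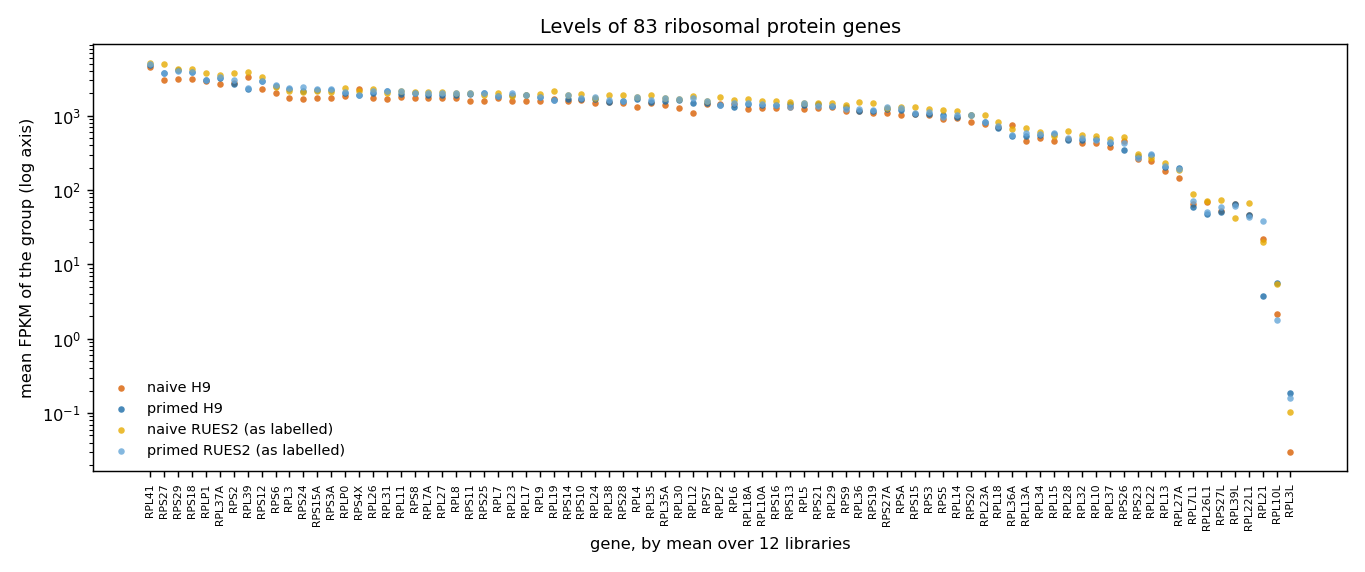
Mean FPKM of 83 of the 84 ribosomal protein genes in the 4 groups, on a log axis, with genes ordered by their mean over 12 libraries. Most genes lie between 180 and 4862 FPKM in all groups, and the 7 named paralogs form the low end together with RPL21.

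Some members could not be read as they stand. RPL21 was listed at 0.0147, 48.5 and 18.1 FPKM in naive H9, against 0.0230, 11.2 and 0.0178 FPKM in primed H9. In libraries labelled RUES2 it was listed at 0.0132, 46.2 and 14.7 FPKM in the naive state, against 63.1, 25.9 and 25.9 FPKM in the primed state. Values near 0 thus stood beside values above 10 within 3 of the 4 groups, and 66 pseudogenes carry the name of RPL21 in GENCODE 29, so no fold change is given for it. RPL3L did not reach the filter of 1 FPKM in 3 libraries. The other 83 members were tested. Pseudogenes named after RPL23A (91) and RPSA (74) are the most numerous, and 36 members overlap another listed gene, so values of members with near-identical copies or overlapping genes are uncertain.

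The members moved largely as a block from library to library. The 3 naive H9 libraries had median deviations from each gene's mean of -0.18, -0.16 and -0.16 on the log2 scale, against -0.17, -0.01 and 0.14 in primed H9. In libraries labelled RUES2 the deviations were 0.10, 0.27 and 0.05 in the naive state and 0.13, -0.07 and 0.06 in the primed state. The naive H9 libraries were therefore close together and low, and one primed H9 library, replicate 1, was as low as they were. The median coefficient of variation of a gene within a group was 1.76% in naive H9 and 11.4% in primed H9. It was 7.45% in naive and 7.42% in primed libraries labelled RUES2. Once each library was divided by the median of its ribosomal protein genes, these values became 1.72%, 4.20%, 2.76% and 2.80%, in that order. Most of the spread within each group but naive H9 was thus shared by the genes. The model used 1 estimate of a gene's spread for all 4 groups, so its p-values do not reflect these unequal spreads.

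**Figure D2:**
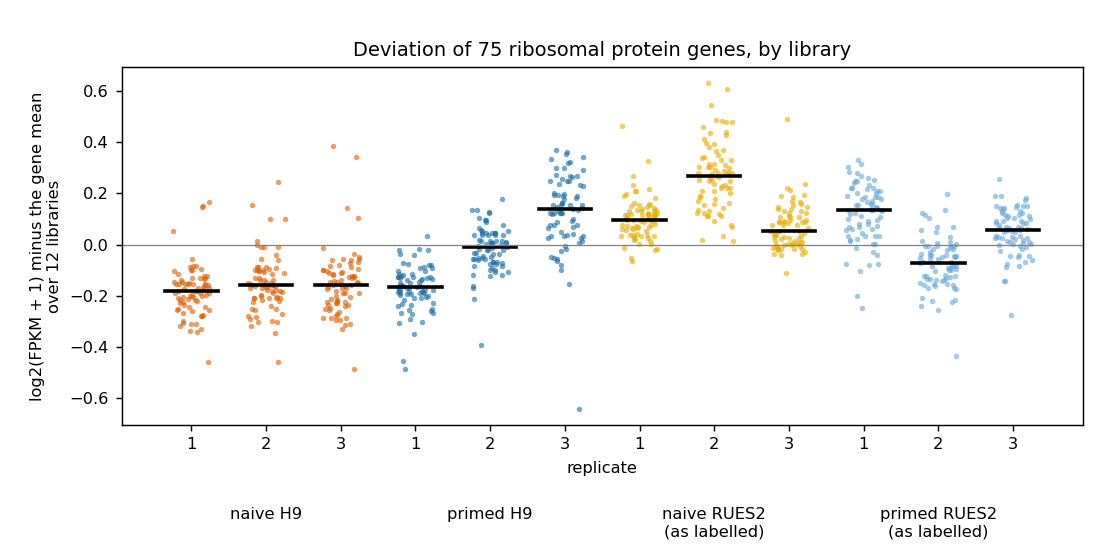
Each point is 1 of 75 ribosomal protein genes (paralogs and RPL21 left out), as log2(FPKM + 1) minus the gene's mean over 12 libraries, and each black bar is the library's median. The naive H9 medians lie from -0.18 to -0.16, while those of primed H9 range from -0.17 to 0.14.

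The summed FPKM of the 84 genes showed the same order. It was 108556 to 110631 in naive H9 and 109268 to 137150 in primed H9, and the ranges overlap. In libraries labelled RUES2 it was 130164 to 149434 in the naive and 117412 to 134825 in the primed state, which also overlap. The share of these genes in the FPKM sum was 11.96% to 13.28% in naive and 13.74% to 16.06% in primed H9. In libraries labelled RUES2 the share was 14.41% to 15.15% in the naive and 15.31% to 17.88% in the primed state. Neither pair of shares overlaps. Without short RNAs the naive and primed shares were 23.8% to 24.0% and 24.19% to 28.85% in H9. In libraries labelled RUES2 they were 26.32% to 28.92% and 25.47% to 27.57%, with overlap. The balance between the subunits was narrower: the small subunit sum was 0.775 to 0.780 of the large subunit sum in naive H9 and 0.805 to 0.844 of it in primed H9, with no overlap. In libraries labelled RUES2 the ratio was 0.789 to 0.810 in the naive and 0.800 to 0.818 in the primed state. These sums and shares are described without a test. Fewer cells of a type and less RNA per cell cannot be told apart in such bulk samples.

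In naive against primed H9, 15 members fell and 5 rose at an adjusted p under 0.05 (limma on log2(FPKM + 1), two-sided, Benjamini-Hochberg over all 14429 genes tested). Over all genes tested 23.9% were called lower and 20.4% higher, so the share of members called lower, 18.1%, was under the background, and the share called higher, 6.02%, was well under it. The changes were small. The 76 genes other than paralogs had a median log2 fold change of -0.16, with 64 of 76 below 0, while the median of all genes tested was -0.01. Both subunits took part, with medians of -0.17 for the small and -0.14 for the large subunit.

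Among the genes that fell was RPL3, the large subunit protein nearest the peptidyl transferase centre. It measured 1721, 1697 and 1724 FPKM in naive H9, against 2009, 2325 and 2548 FPKM in primed H9. Every naive H9 value was below every primed one (log2 fold change -0.41 ± 0.12, SE, limma adjusted p = 0.019). The call was lost without a filter on low values, without any one naive H9 library or without primed H9 replicate 3. The limma adjusted p-values were 0.00929 to 0.0616 over all alternatives. RPL15, another large subunit protein, was 464, 465 and 459 FPKM in naive H9, against 523, 586 and 612 FPKM in primed H9. It fell by 0.31 on the log2 scale (limma adjusted p = 0.0063), again with no overlap. Its call was lost only when scaled to the ribosomal protein median (limma adjusted p = 0.138). RPL22, a protein of the ribosome surface, fell by 0.27 (limma adjusted p = 0.0159), and RPS6, the phosphorylated target of S6 kinase, fell by 0.31 (limma adjusted p = 0.0343). The call of RPL22 was lost under 3 alternatives, with limma adjusted p-values of 0.00798 to 0.234 over all of them, and that of RPS6 under 10, with 0.00692 to 0.103.

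RPS24 (-0.36), RPS25 (-0.37), RPL31 (-0.36), RPL4 (-0.35) and RPS29 (-0.40) also fell, all with limma adjusted p-values between 0.03 and 0.0453. Their calls were lost under 11, 7, 16, 9 and 8 alternatives, in that order, with limma adjusted p-values of up to 0.139 for RPL31 and 0.231 for RPS29. RPS3A had a log2 fold change of -0.32 and did not pass (limma adjusted p = 0.0501). RPL12, named here after its values were seen because its change was the lowest, measured 1098, 1096 and 1077 FPKM in naive H9 and 1220, 1429 and 1812 FPKM in primed H9. Its log2 fold change was -0.43 ± 0.15 (SE, limma adjusted p = 0.0402). RPL27A, RPL30, RPS15A and RPS20 were also among the genes that fell.

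The count of genes that fell rested on single libraries. It was 4, 3 and 4 without naive H9 replicate 1, 2 and 3, 9 without primed H9 replicate 2, 4 without primed H9 replicate 3, 8 without naive RUES2 replicate 1, and 21 without primed H9 replicate 1. With the H9 libraries alone, 4 members fell and 3 rose, and without a filter on low values 5 fell.

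The 5 genes that rose in naive H9 ran against most of the family, as 66 of the 83 members tested lay below 0 and 17 above it. RPL39, a short protein of the exit tunnel, measured 3183, 3077 and 3643 FPKM in naive H9, against 2053, 2191 and 2682 FPKM in primed H9. All naive values exceeded all primed values (log2 fold change 0.52 ± 0.13, SE, limma adjusted p = 0.00785). RPL36A, a large subunit protein near the exit site of tRNA, was 689, 726 and 802 FPKM in naive H9, against 448, 530 and 631 FPKM in primed H9. It rose by 0.47 ± 0.12 on the log2 scale (limma adjusted p = 0.00771), though its span includes the read-through gene RPL36A-HNRNPH2.

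RPS26, a small subunit protein at the mRNA exit channel, measured 445, 459 and 460 FPKM in naive H9 and 371, 382 and 274 FPKM in primed H9 (log2 fold change 0.42 ± 0.14, SE, limma adjusted p = 0.032). RPS4X, the X-linked copy of a small subunit protein, measured 2274, 2282 and 2266 FPKM in naive H9 and 1705, 2020 and 1981 FPKM in primed H9. Its rise of 0.26 ± 0.10 had a limma adjusted p of 0.0478. The paralog RPL26L1 completed the set and is described with the other paralogs. RPS26 was not called without any one naive H9 library, without primed H9 replicate 3 or with H9 libraries alone, and its limma adjusted p over all alternatives ran from 0.0213 to 0.0988. RPS4X was lost under 14 alternatives, with a range of 0.00413 to 0.146. RPL39, RPL36A and RPL26L1 were called under every alternative run.

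**Figure D3:**
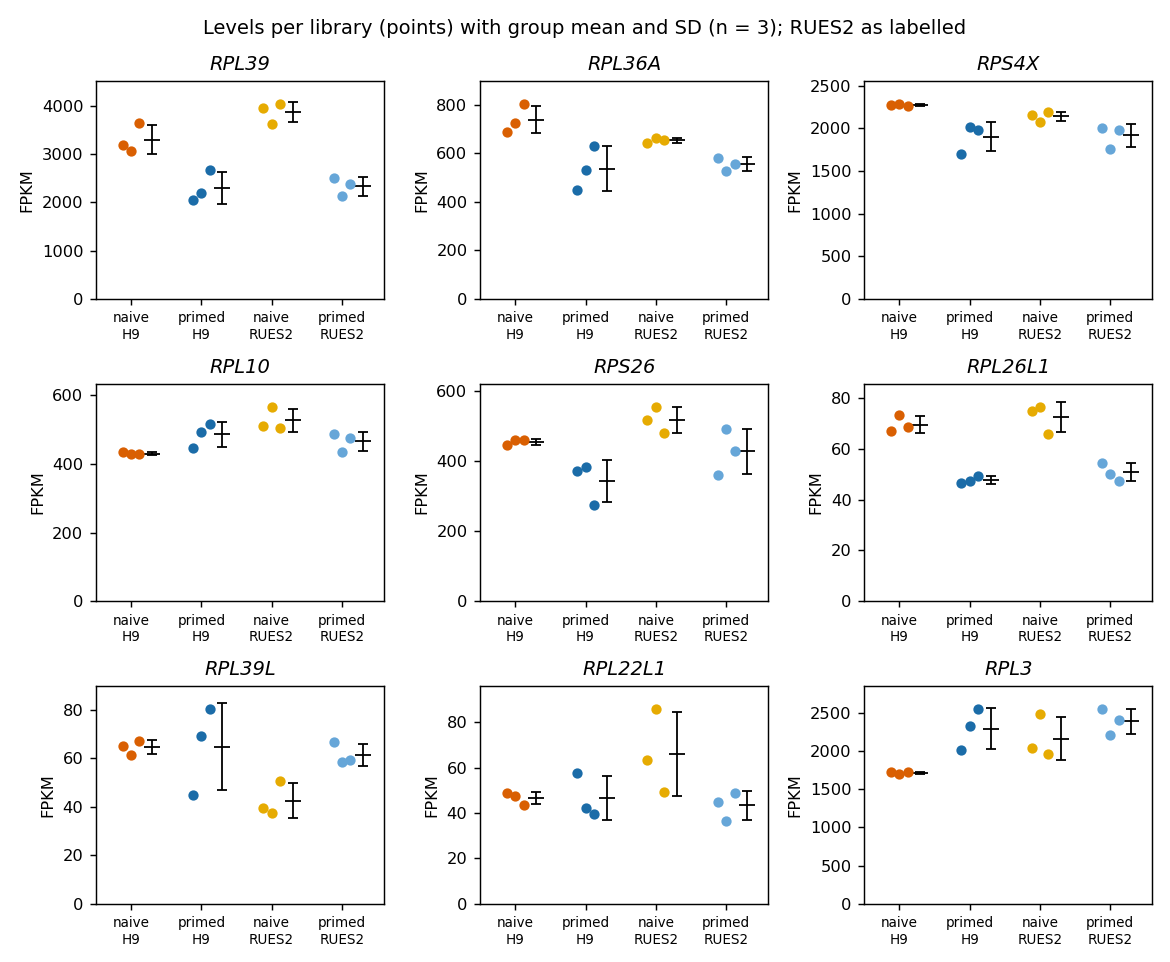
FPKM of 9 members in each library (points), with the group mean and SD (n = 3) beside them, naive left of primed in each line. RPL39 and RPL26L1 are higher in naive libraries of both lines, whereas RPL3 is lower in naive H9 and overlaps between states in the libraries labelled RUES2.

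In the libraries labelled RUES2, the count ran the other way: 11 members rose and 1 fell. Over all genes tested 23.1% were called higher and 23.7% lower, so both shares of members, 13.3% and 1.2%, were under the background. The 76 genes other than paralogs had a median log2 fold change of 0.12, with 57 above 0, while the median of all genes was 0.01. The median was 0.01 under quantile normalization, so most of it depends on that choice. Without naive RUES2 replicate 2 or without primed RUES2 replicate 2, 3 members rose, and 7 rose without a filter or by median-of-ratios scaling.

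RPL39 rose here as well, with 3964, 3629 and 4036 FPKM in naive libraries labelled RUES2 against 2500, 2126 and 2375 FPKM in primed ones. The groups do not overlap, and the log2 fold change was 0.73 ± 0.13 (SE, limma adjusted p = 0.00105). RPS27, a zinc-binding small subunit protein, measured 4788, 5805 and 4492 FPKM in naive and 4000, 3573 and 3635 FPKM in primed libraries labelled RUES2. It rose by 0.42 ± 0.14 (limma adjusted p = 0.0324), but the call was lost under 9 alternatives, among them those without naive RUES2 replicate 1 or 2 or primed RUES2 replicate 2 or 3 (0.00631 to 0.117 over all alternatives). RPL19, a large subunit protein that reaches across to the small subunit, was 2030, 2448 and 2007 FPKM in naive and 1659, 1567 and 1701 FPKM in primed libraries labelled RUES2. It rose by 0.39 ± 0.11 (limma adjusted p = 0.0132) and was called under every alternative run. RPL28, RPS15 and RPL36 also rose, by 0.31, 0.30 and 0.32 on the log2 scale. The call of RPL28 was lost under 11 alternatives, with limma adjusted p-values of up to 0.162.

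Of the genes that rose, RPL39 and RPL26L1 were called in both lines, which is 2 of the 5 genes that rose in H9 and 2 of the 11 that rose in the libraries labelled RUES2. No member fell in both lines, where only 1 member fell in the libraries labelled RUES2, and none was called in opposite directions. The share of all genes called in both lines is not given here, on this or another scale, so such overlaps are counts only. The state comparisons share no library, but they come from 1 model with a common estimate of the spread. The calls of each therefore depend in part on the libraries of the other. The change in the libraries labelled RUES2 minus that in H9 had a median of 0.26 over the 76 genes. Tested gene by gene, that difference gave 0 calls in either direction (limma), beside 3.77% of all genes called higher and 1.93% called lower. At an unadjusted p under 0.05 there were 15 members, beside 21.2% of all genes tested. The lowest adjusted p was that of RPS27, with a difference of 0.69 ± 0.20 (SE, limma adjusted p = 0.0751). A count of calls in 1 line and not in the other is thus not shown to differ gene by gene.

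**Figure D4:**
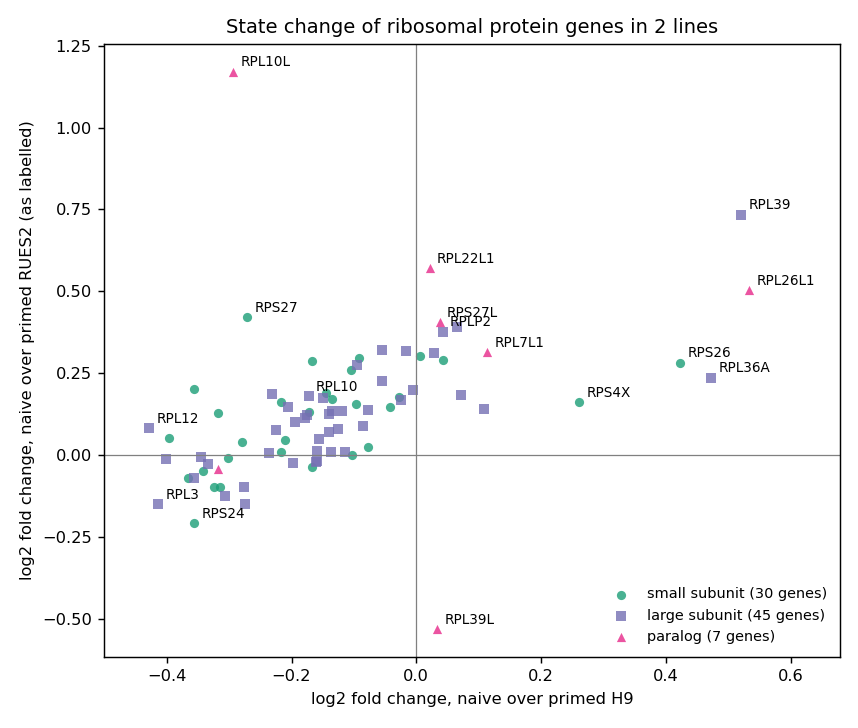
Log2 fold change of each tested member other than RPL21, naive over primed H9 on the horizontal axis and naive over primed libraries labelled RUES2 on the vertical axis. Most genes lie left of 0 and above 0, while RPL39 (0.52 and 0.73) and RPL26L1 (0.53 and 0.50) lie apart at the upper right.

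A further scaling, chosen after seeing the data, set the median of the 76 genes to be equal in every library and so asked which members departed from the family. The median of all genes then moved to 0.14 in H9 and to -0.09 in the libraries labelled RUES2. In H9, 10 members were higher and 6 lower, beside 23.2% and 14.4% of all genes. In the libraries labelled RUES2, 9 were higher and 6 lower, beside 12.9% and 23.2% of all genes. Relative to the family, RPL39, RPL26L1, RPL19, RPLP2 and RPS2 were higher in both lines and RPL3 was lower in both. Naive over primed, RPL39 rose relative to the family by 0.67 ± 0.10 in H9 (SE, limma adjusted p = 0.000674). It rose by 0.64 ± 0.10 in the libraries labelled RUES2 (limma adjusted p = 0.000808). RPL3 changed by -0.26 ± 0.07 in H9 (limma adjusted p = 0.0106) and by -0.25 ± 0.07 in the libraries labelled RUES2 (limma adjusted p = 0.0131). The direction of RPL3 was the same under both scalings. The call for RPL3 in the RUES2-labelled comparison came only with this scaling. RPS27 was the single member called for the difference between the lines (0.44 ± 0.11, SE, limma adjusted p = 0.0449, with 0.0449 to 0.316 over its alternatives).

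The 4 X-linked members did not move together. In naive H9, RPL39, RPL36A and RPS4X rose and RPL10 did not. RPL10, a large subunit protein that joins late in assembly, measured 433, 428 and 429 FPKM in naive H9 against 447, 493 and 517 FPKM in primed H9. Its log2 fold change was -0.17 ± 0.08 (SE, limma adjusted p = 0.104), and the gene overlaps DNASE1L1. In naive H9, 43.1% of the 538 other X-linked genes tested were called higher and 16.4% lower, against 19.5% and 24.2% of autosomal genes. Their median log2 fold change was 0.28. In the libraries labelled RUES2, RPL39 alone was called, with RPL36A at 0.24 ± 0.12 (limma adjusted p = 0.118), RPS4X at 0.16 ± 0.10 (0.196) and RPL10 at 0.18 ± 0.08 (0.088). The other X-linked genes there had a median of 0.003, with 25.5% called higher and 23.2% lower. The part of a chromosome-wide shift in the values of the X-linked members was not tested.

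By role in the ribosome, calls among the stalk proteins, which recruit translation factors, came in the libraries labelled RUES2. RPLP1 measured 3494, 4167 and 3619 FPKM in naive and 3009, 2846 and 3150 FPKM in primed libraries labelled RUES2 (log2 fold change 0.32 ± 0.11, SE, limma adjusted p = 0.0297). RPLP2 rose by 0.38 ± 0.11 (limma adjusted p = 0.0154), and RPLP0 was at 0.17 ± 0.12 without passing (0.241). Neither RPLP1 nor RPLP2 was called without naive or without primed RUES2 replicate 2. RPLP1 also lost its call without naive replicate 3 or primed replicate 1, without a filter, and by median-of-ratios or quantile scaling. In naive H9 the 3 stalk genes were between -0.15 and 0.04 with no call, and the difference between the lines was not called for any of them. RPL5 and RPL11, which with 5S rRNA can bind MDM2, were not called in either line: RPL5 was at -0.16 ± 0.10 in H9 and -0.02 ± 0.10 in the libraries labelled RUES2, and RPL11 at -0.14 ± 0.11 and 0.01 ± 0.11. At the exit tunnel and its rim, RPL39 rose while RPL4 and RPL22 fell in naive H9, and RPL17 was at -0.24 ± 0.11 (limma adjusted p = 0.115). Of 12 listed genes mutated in Diamond-Blackfan anaemia, a disorder of red cell production, 11 were analysed here. RPS26 rose and RPS24, RPL15 and RPS29 fell in naive H9, beside 20.4% of all genes called higher and 23.9% lower. By limma 0 were called in the libraries labelled RUES2, beside 23.1% and 23.7%.

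Among the paralogs, RPL26L1, a near copy of RPL26, was 67.0, 73.1 and 68.5 FPKM in naive H9, against 46.6, 47.2 and 49.3 FPKM in primed H9 (log2 fold change 0.53 ± 0.08, SE, limma adjusted p = 0.000354). In libraries labelled RUES2 it was 74.9, 76.5 and 65.6 FPKM in the naive state, against 54.5, 50.1 and 47.5 FPKM in the primed state (0.50 ± 0.08, limma adjusted p = 0.000467). It did not overlap between states in either line. Its level was 3.97% of that of RPL26 in naive H9 and 2.42% in primed H9, and 3.15% in naive and 2.39% in primed libraries labelled RUES2. RPL26 itself was not called (log2 fold changes -0.18 and 0.11).

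RPL39L, a testis-enriched paralog of RPL39, fell in the libraries labelled RUES2, where it measured 39.5, 37.4 and 50.6 FPKM in naive and 66.7, 58.3 and 59.3 FPKM in primed libraries. The log2 fold change was -0.53 ± 0.19 (SE, limma adjusted p = 0.0369), and the call was lost without any one library labelled RUES2 other than naive replicate 3, and without naive H9 replicate 1. In H9 it measured 65.1, 61.3 and 66.9 FPKM in the naive and 44.9, 69.1 and 80.1 FPKM in the primed state, with no call. As a share of RPL39 it was 1.09% in naive and 2.64% in primed libraries labelled RUES2, and 1.96% in naive and 2.78% in primed H9.

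RPL22L1, the paralog of RPL22, rose in the libraries labelled RUES2, with 63.3, 85.8 and 49.4 FPKM in naive and 45.0, 36.3 and 48.8 FPKM in primed libraries. The log2 fold change was 0.57 ± 0.20 (SE, limma adjusted p = 0.0362). The call was lost without naive replicate 1 or 2 or without primed replicate 1 or 2 of that label. It was also lost when short RNAs were left out of the scaling and when scaled to the ribosomal protein median. The change of RPL22L1 was 0.02 ± 0.20 in H9. RPL22L1 amounted to 24.2% of RPL22 in naive and 14.4% in primed libraries labelled RUES2, against 19.1% in naive and 16.0% in primed H9. RPL7L1, a nucleolar relative of RPL7 that takes part in ribosome assembly, rose there too, with 91.4, 98.9 and 74.8 FPKM in naive and 73.3, 65.2 and 73.1 FPKM in primed libraries labelled RUES2 (0.31 ± 0.10, SE, limma adjusted p = 0.0216). That call was lost without naive replicate 1 or 2 or primed replicate 2, and when scaled to the ribosomal protein median.

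RPS27L, a p53-induced paralog of RPS27, showed no call in either line. It spanned 64.9 to 84.7 FPKM in naive and 32.5 to 77.1 FPKM in primed libraries labelled RUES2. RPL10L, a testis paralog of RPL10, stood at 1.66 to 2.53 FPKM in naive H9 and 0.561 to 14.9 FPKM in primed H9, the highest value being primed H9 replicate 3. It measured 6.87, 2.93 and 6.74 FPKM in naive libraries labelled RUES2, against 1.94, 1.32 and 2.08 FPKM in primed ones, with no overlap. It was not called in either line, with a log2 fold change of 1.17 ± 0.69 in the libraries labelled RUES2 (SE, limma adjusted p = 0.19, with 0.00645 to 0.352 over all alternatives). There it was called only without primed H9 replicate 3. RPL3L was at most 0.068 FPKM in naive H9 and 0.209 FPKM in primed H9, and 0.212 and 0.221 FPKM at most in the naive and primed libraries labelled RUES2.

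Between the line labels, the members differed in the naive state. In naive libraries labelled RUES2 against naive H9, 23 members were higher and 0 lower, or 27.7%, beside 11.2% of all genes called higher and 4.69% lower, and 63 of 83 had an unadjusted p under 0.05, against 30.5% of all genes tested. The median log2 fold change of the 76 genes was 0.30. RPL12 was named after its values were seen, as the largest change among genes other than paralogs. It measured 1752, 2198 and 1641 FPKM in naive libraries labelled RUES2 against 1098, 1096 and 1077 FPKM in naive H9 (0.76 ± 0.15, SE, limma adjusted p = 0.00769). RPS27 followed with 0.70 ± 0.14 (limma adjusted p = 0.00861). In primed libraries labelled RUES2 against primed H9, 0 members were called by limma, beside 1.34% of all genes called higher and 0.471% lower. There 3 members had an unadjusted p under 0.05, beside 14.3% of all genes tested. The count of 23 in the naive state was 3, 4 and 5 without naive H9 replicate 1, 2 and 3, 8 and 4 without naive RUES2 replicate 1 and 2, 14 without primed RUES2 replicate 3, and 38 without primed H9 replicate 3. It was 10 without a filter, 6 to 8 under median-of-ratios, quantile, short-RNA and length scaling, and 8 with a replicate block. Scaled to the ribosomal protein median, 3 members were higher and 3 lower. The median of the 76 genes was then -0.008, which that scaling sets near 0. The share of all genes so called is not given here. Members moved largely as a block between libraries, so these counts are not of independent results.

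Ribosome biogenesis genes, which encode the factors that assemble the subunits, had medians above 0 in both lines. The counts of this and the following lists stand beside 20.4% of all genes called higher and 23.9% lower in H9, and 23.1% higher and 23.7% lower in the libraries labelled RUES2. Of 28 ribosome biogenesis genes, 11 rose and 1 fell in naive H9, and 20 rose and 0 fell in the libraries labelled RUES2, with median log2 fold changes of 0.30 and 0.42. MRTO4, which assembles the stalk site, rose by 0.71 ± 0.14 in naive H9 (SE, limma adjusted p = 0.00253) and by 0.71 ± 0.14 in naive libraries labelled RUES2 (limma adjusted p = 0.00225). BYSL, a small subunit assembly factor, rose by 0.59 and 0.57. NOP16 and RRP9 rose in the libraries labelled RUES2, by 0.86 and 0.74, and were at 0.42 and 0.37 in H9 without passing. FBL, the rRNA methyltransferase fibrillarin, was the gene that fell in naive H9 (-0.32 ± 0.12, limma adjusted p = 0.0432), named after its values were seen.

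RNA polymerase I transcribes the rRNA precursor. Of 10 of its genes, 1 rose in naive H9 (POLR1C, 0.51 ± 0.14, SE, limma adjusted p = 0.015) and 5 rose in the libraries labelled RUES2, namely POLR1E, POLR1C, POLR1A, TAF1A and POLR1B. Of 19 translation factors and other mRNAs with a TOP start, which share the start of most ribosomal protein mRNAs, 0 rose and 6 fell in naive H9 (median -0.19) and 0 rose and 2 fell in the libraries labelled RUES2 (median 0.005). EIF4B fell by 0.56 ± 0.11 in naive H9 (limma adjusted p = 0.0027), and EEF1A1, the elongation factor that brings tRNA, fell by 0.53 ± 0.14 (0.0103). NAP1L1 fell in both lines, by 0.30 in H9 and by 0.43 in the libraries labelled RUES2, where HNRNPA1 fell as well, by 0.23. The ribosomal protein genes with a C/T run had medians of -0.14 in H9 and 0.14 in the libraries labelled RUES2, and the 11 without one had medians of -0.19 and 0.08.

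The noncoding hosts of small nucleolar RNAs are spliced RNAs whose introns carry guides for rRNA modification. Of 9 hosts, SNHG7 and SNHG8 rose and GAS5 and ZFAS1 fell in naive H9, and 7 rose and 0 fell in the libraries labelled RUES2. The call of SNHG7 in H9 (limma adjusted p = 0.0466) was lost under 12 alternatives, with 0.0204 to 0.159 over all of them. SNHG8 rose in both, by 0.76 ± 0.14 in H9 (SE, limma adjusted p = 0.00165) and by 1.20 ± 0.14 in the libraries labelled RUES2 (limma adjusted p = 9.3e-05). The difference between the lines was called for GAS5 and ZFAS1, named after their values were seen; both fell in naive H9 and rose in naive libraries labelled RUES2. GAS5 measured 266, 269 and 261 FPKM in naive H9 and 375, 402 and 498 FPKM in primed H9, but 704, 1033 and 627 FPKM in naive and 516, 464 and 467 FPKM in primed libraries labelled RUES2.

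**Figure D5:**
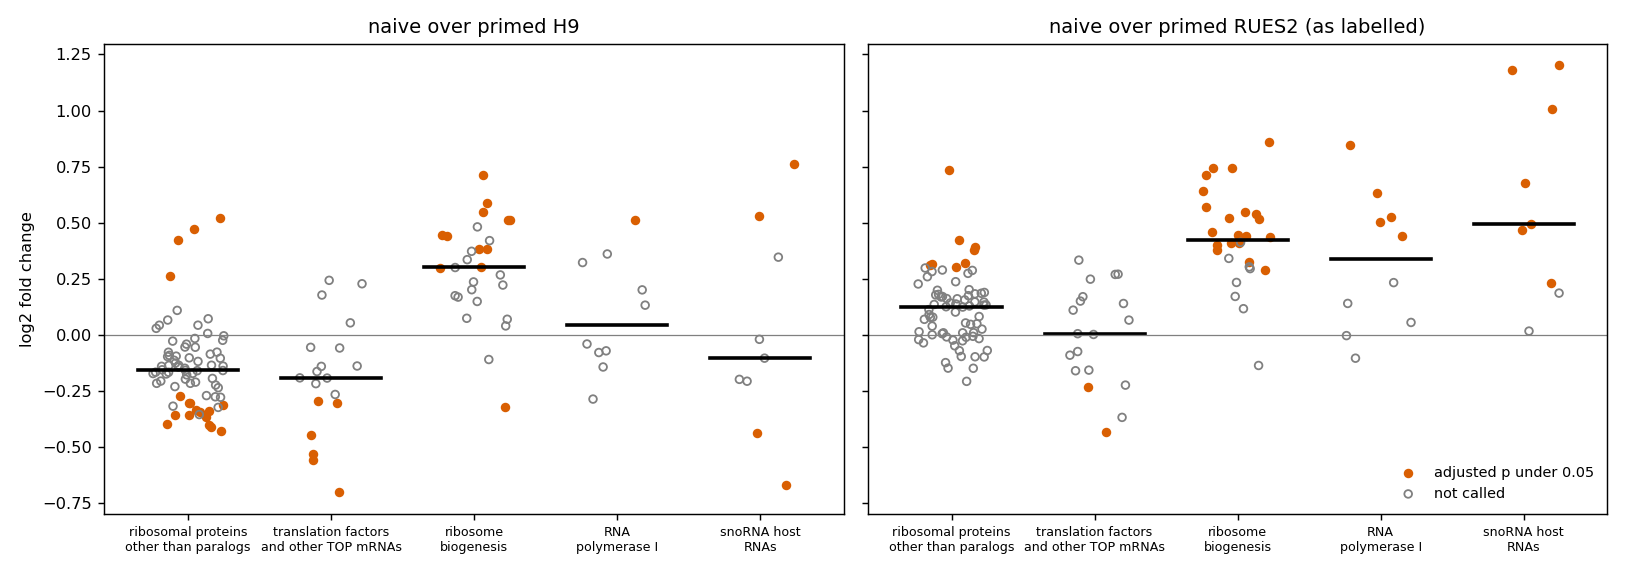
Log2 fold change (vertical axis) of ribosomal protein genes other than paralogs and RPL21 and of 4 related lists, naive over primed, for H9 on the left and libraries labelled RUES2 on the right. Filled points had an adjusted p under 0.05 and black bars are medians: biogenesis genes sit above 0 in both panels (0.30 and 0.42), while the ribosomal protein median is -0.16 in H9 and 0.12 in the libraries labelled RUES2.

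Some markers of other cell types differed with the state. Of 12 fibroblast markers 8 rose in naive libraries of each line, and their summed FPKM was 442 to 646 in naive H9 and 134 to 560 in primed H9, and 271 to 1306 in naive and 240 to 431 in primed libraries labelled RUES2. S100A4, another of the 12, fell in naive libraries labelled RUES2 (-1.43 ± 0.40, SE, limma adjusted p = 0.0143). Of 6 endoderm markers, GATA4 and GATA6 rose and SOX17 and HHEX fell in naive H9, while GATA4, GATA6 and SOX17 rose and HHEX fell in naive libraries labelled RUES2. Their summed FPKM was 18.7 to 26.6 in naive H9 and 12.6 to 18.5 in primed H9, and 23.4 to 48.1 in naive and 27.0 to 35.1 in primed libraries labelled RUES2. Of 6 neural markers 2, TUBB3 and MAP2, passed the filter, and both rose in each line. The summed FPKM of the 6 was 175 to 190 in naive H9 and 66.7 to 112 in primed H9, and 230 to 304 in naive and 53.8 to 102 in primed libraries labelled RUES2. Most of each sum was TUBB3, which averaged 173.7 FPKM in naive H9 and 87.04 FPKM in primed H9. PAX6, SOX1, NEUROD1 and NEUROG2 averaged under 1 FPKM in every group. NEUROD1 was at 0 FPKM in naive H9. Their part in the values of the ribosomal protein genes was not tested.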

How the data were processed

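Poly(A) RNA-seq gave 1 table per library in 4 groups of 3. The authors deposited FPKM per gene with confidence bounds, as named in the file headers. The series' design mentions RPKM instead, and FPKM was assumed here. The submitters' processing notes name bcl2fastq 2.17.1.14, TopHat2 2.1.1 and hg19. For the FPKM program, the annotation and the strandedness of the libraries nothing is given in the sources used here. Of 25278 entries, 23590 symbols on the primary chromosomes were kept, with the locus of the highest mean for 310 symbols with several loci. No libraries held identical values and 0 columns were unassigned.

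The 14429 genes that reached 1 FPKM in 3 or more libraries entered limma (version 3.58.1, R version 4.3.3) as log2(FPKM + 1), in 1 model with a mean per group and a variance trend, with Benjamini-Hochberg adjustment over all genes. A fold change on this scale understates the change of low genes. The fit was tested on simulated data with changes put into naive H9. It called 81 of 97 genes changed by 1 on the log2 scale (83.5%) and 35 of 97 changed by 0.5 (36.1%). Of 13931 unchanged genes 6 were called. A change of 0.5 was thus missed more often than called, so a member without a call may still differ. Far fewer genes were changed there than were called in the data, so these rates need not hold here. Members, gene lists and comparisons were chosen with earlier results of these data known. Named were 7 paralogs and their parents, the 8 highest and 8 lowest mean state changes, the 5 highest levels, short role lists and up to 4 called genes per related list; some items that this rule selects are not reported here. Starts and C/T runs came from RefSeq (GRCh38.p14), by symbol, for 67 members. Alternatives covered the pseudocount, filter, scaling, gene length, several loci, a replicate block, H9 alone and leaving out each library. Tables and plots used Python 3.11.15, numpy 2.4.6, pandas 2.3.3 and matplotlib 3.10.9.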

Additional observations from a re-analysis of the deposited data

Results flagged for a closer look

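The state change of GAS5, a noncoding host of small nucleolar RNAs, differed between the line labels by 1.34 ± 0.24 on the log2 scale (RUES2-labelled minus H9, SE, limma adjusted p = 0.011). The change was 0.68 in the libraries labelled RUES2 and -0.67 in H9. That of ZFAS1, another such host, differed by 0.91 ± 0.20 (limma adjusted p = 0.0303), with 0.47 in the libraries labelled RUES2 and -0.44 in H9. No ribosomal protein gene met the same test on the deposited scale.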

How the results depend on the processing

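The counts of members called moved with several choices, and the causes were not tested. In naive against primed H9, 5 rose as reported, 3 with H9 libraries alone and 10 scaled to the ribosomal protein median, with 3 to 5 when 1 library was left out. The 15 that fell became 5 without a filter, 6 with a replicate block, 4 with H9 libraries alone and 6 scaled to the ribosomal protein median, with 3 to 21 when 1 library was left out. In the libraries labelled RUES2, the 11 that rose became 7 without a filter, 7 by median-of-ratios scaling and 6 by quantile normalization (3 to 14 with 1 library left out). The 1 that fell became 4 when rescaled without short RNAs, 6 by quantile normalization, 2 with the length trend removed and 6 scaled to the ribosomal protein median (0 to 1 with 1 library left out). The difference between the lines gave 1 call higher when scaled to the ribosomal protein median, and 0 to 1 with 1 library left out (1 without primed H9 replicate 1). In the naive state, the 23 higher in the libraries labelled RUES2 became 10 without a filter, 7 by median-of-ratios scaling, 6 without short RNAs, 8 by quantile normalization, 6 with the length trend removed, 8 with a replicate block and 3 scaled to the ribosomal protein median, with 3 to 38 when 1 library was left out. The 0 lower became 1 by median-of-ratios scaling, without short RNAs or with the length trend removed, 3 scaled to the ribosomal protein median, and 0 to 1 with 1 library left out. RPL10 in that comparison changed sign, to -0.0136, when scaled to the ribosomal protein median (limma adjusted p = 0.882). The summed FPKM of naive H9, 109863 as reported, was 113997 without short RNAs and 111099 summed over loci.

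Replicate numbers showed no strong pairing of the libraries. Of 6 pairs of same-numbered libraries, naive and primed of 1 line label, 0 had a correlation of deviations over 0.1. The values ran from -0.05 to 0.08. In 3 of the 6 pairs, all labelled RUES2, the naive library correlated most with the primed library of its own number. A weak pairing in that label is therefore not excluded. Depth is unknown, which limits what can be said of the low paralogs RPL10L and RPL3L, and 3 libraries per group limit the precision of every comparison.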
